A study of Rattus norvegicus with 28 samples.

Results

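The transition of the contused rat spinal cord from the late subacute to the early chronic stage of spinal cord injury (SCI) was examined by comparing the 4 injured cords taken 4 weeks after injury (T4) with the 4 injured cords taken 2 weeks after injury (T2). These are 8 of the 28 microarrays of the study, chosen by the time point in their labels and not by any measured value. All 8 animals were adult female Sprague Dawley rats with a severe contusion of 250 kdyn at the eighth thoracic level, without a cell transplant, and 1.5 cm of cord with the injury epicentre and without dura was taken from each. T0 (uninjured; named sham in the labels), T1 and T8 (1 and 8 weeks after injury), with 4 arrays each, are used to describe where a level stood in the time course. All 28 arrays also enter the fit that estimates the spread of each gene. These include injured cords with a neural progenitor cell transplant, taken 1 week (T1_NPC) and 2 weeks (T2_NPC) after injury. The post-surgery care included an antibiotic, buprenorphine and the immunosuppressant FK-506 (tacrolimus), whose start is tied to the day before transplantation, and the sources used here do not say whether animals without a transplant received FK-506. Each array held the RNA of 1 animal according to the methods. The spread used in the tests is therefore that between animals within groups, pooled over all groups of the study and not estimated at T2 and T4 alone.

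After a contusion, cells at the lesion divide and haematogenous and resident immune cells fill its core, fibroblasts and perivascular cells lay down collagen-rich matrix, and astrocytes form a border around it. The ependyma, the ciliated epithelium that lines the central canal, also responds to injury, and Schwann cells enter from the roots and wrap axons with peripheral myelin. In whole tissue, fewer cells of a type and less RNA per cell cannot be told apart.

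The arrays carried a single dye (Cy3), and 45018 spots were read on each. The level of a gene is given as a log2 value after quantile normalization, so a difference of 1 is a doubling, and levels of different genes are not compared because each probe has its own brightness. Between 75.1% (T2 replicate 3) and 81.3% of spots lay well above background on the T2 arrays and between 80.2% and 80.9% on the T4 arrays, and no spot of either group was saturated. The number of arrays, 4 in each group, limits the precision. The value table and the deposited scanner outputs name different samples for 5 of these 8 arrays (T2 replicates 1 and 4, T4 replicates 1, 2 and 3), and the groups here follow the value table. In that table Cd68, a macrophage gene whose transcripts are scarce in uninjured cord, lay between 8.83 and 9.51 on the T0 arrays and between 15.5 and 16.5 on all arrays of injured cord. Under the sample names of the scanner outputs, its processed signal (log2) ran from 9.24 to 16.6 within T0, from 8.83 to 17.02 within T1 and from 9.18 to 17.2 within T2. With the scanner outputs under those names, no feature was called between T4 and T2 by limma (729 had an unadjusted p under 0.05), so every result below rests on the sample names of the value table. By the matched scanner outputs, T2 was scanned in 2 sessions with 2 arrays in each, while 1 T4 array was in the first session and 3 were in the second. The first principal component of the 8 arrays held 27.3% of the variance and separated the sessions, and the second held 21.4%, with T2 arrays between -11.3 and 57.8 and T4 arrays between -48.1 and -9.04.

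Of 35469 features (the gene names of the array annotation), 27 differed between T4 and T2 at an adjusted p under 0.05 (limma, Benjamini-Hochberg over all features), which is 0.0761% of those tested. Of these, 18 were higher at T4 (0.0507%) and 9 were lower (0.0254%). When the matched scanner outputs were scaled to the 75th percentile of each array instead, 20 were higher and 30 lower. The median change of all features was -0.00343 on the log2 scale, and 49.2% of features had a change above 0. The groups did not overlap, that is, all 4 arrays of one lay above all 4 of the other, for 841 features that were higher at T4 (2.37%) and 1059 that were lower (2.99%), and all 27 called features were among these. The called changes ranged in size from 0.56 to 3.24 on the log2 scale.

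The number of calls depended on single animals. With 1 array left out, it was 9, 40, 4 and 5 without T2 replicates 1, 2, 3 and 4, and 1, 2, 4 and 81 without T4 replicates 1, 2, 3 and 4, respectively. Of the 27, 7, 17, 3 and 4 were still called without T2 replicates 1 to 4 and 1, 2, 4 and 26 without T4 replicates 1 to 4, in the same order. Of the 27, 1 was called in all 8 of these fits and 26 lost their call in at least 1, while Esrp1 was called in 6, FM087620 in 5 and Megf11 in 4 of them. With a term for the scan session in the model 86 features were called, including all 27, and with the slide as a block 31 were called, including 16 of the 27. With T2 and T4 alone in the fit, which leaves fewer arrays to estimate the spread, no feature was called by limma, while 3192 had an unadjusted p under 0.05, against 3198 with all groups in the fit.

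**Figure D1:**
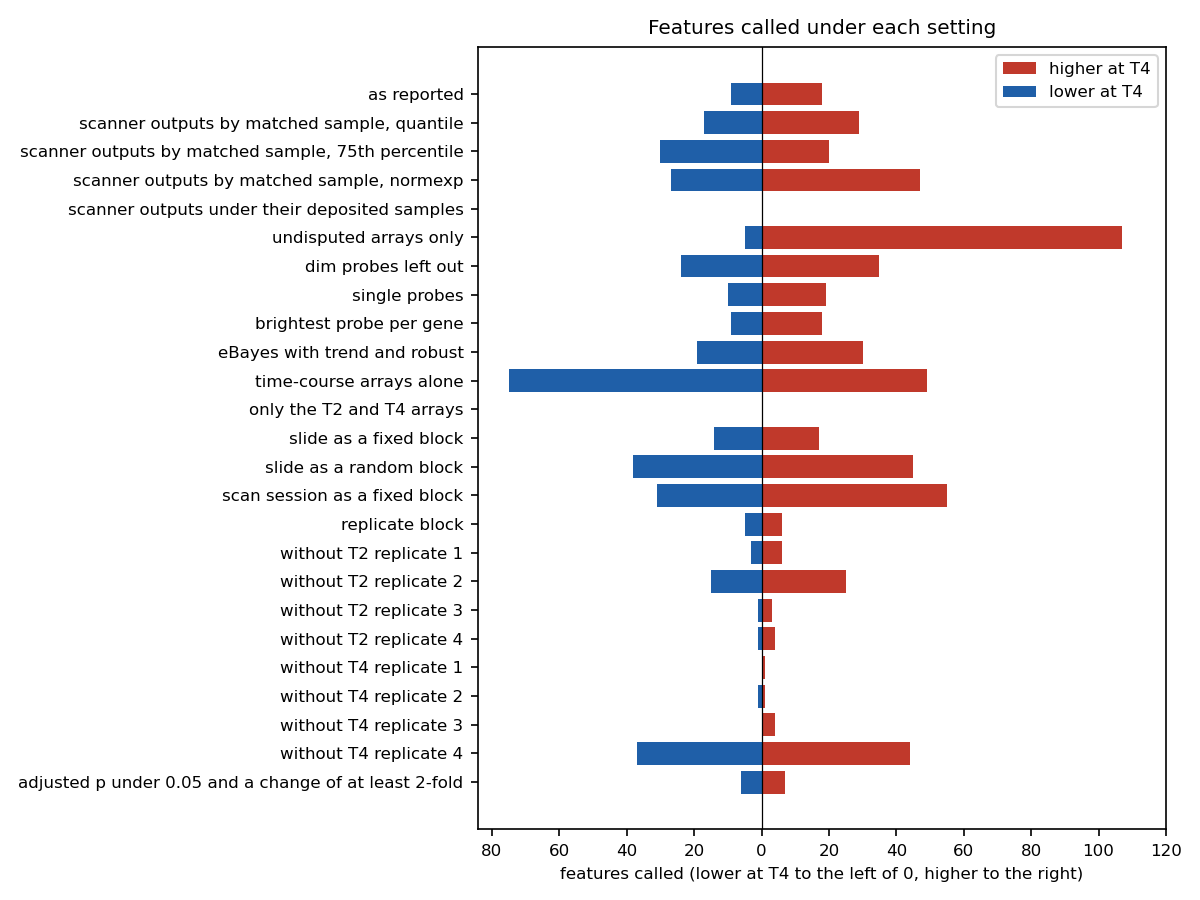
Features called between T4 and T2 (adjusted p under 0.05) under each setting, with those higher at T4 to the right of 0 and those lower to the left. The reported fit gave 18 higher and 9 lower, and the totals over all settings ran from 0 to 124.

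Of the 27 called features, 18 had a RefSeq gene symbol, 13 higher and 5 lower at T4. The other 9 (5 higher, 4 lower) carried array names with no symbol in the reference, such as LOC684611 and FM087620 among those that fell, and their changes ranged from -1.45 to 1.32. One of these, AI412606, was not well above background on any array of either group. At T8 the mean level of 26 of the 27 stood nearer to T4 than to T2. Of the 9 that fell, 8 had a T1 mean at or above their T2 mean, and 8 had a T0 mean below their T4 mean. Of the 18 that rose, 8 had a T0 mean above their T2 mean and 3 a T0 mean above their T4 mean.

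**Figure D2:**
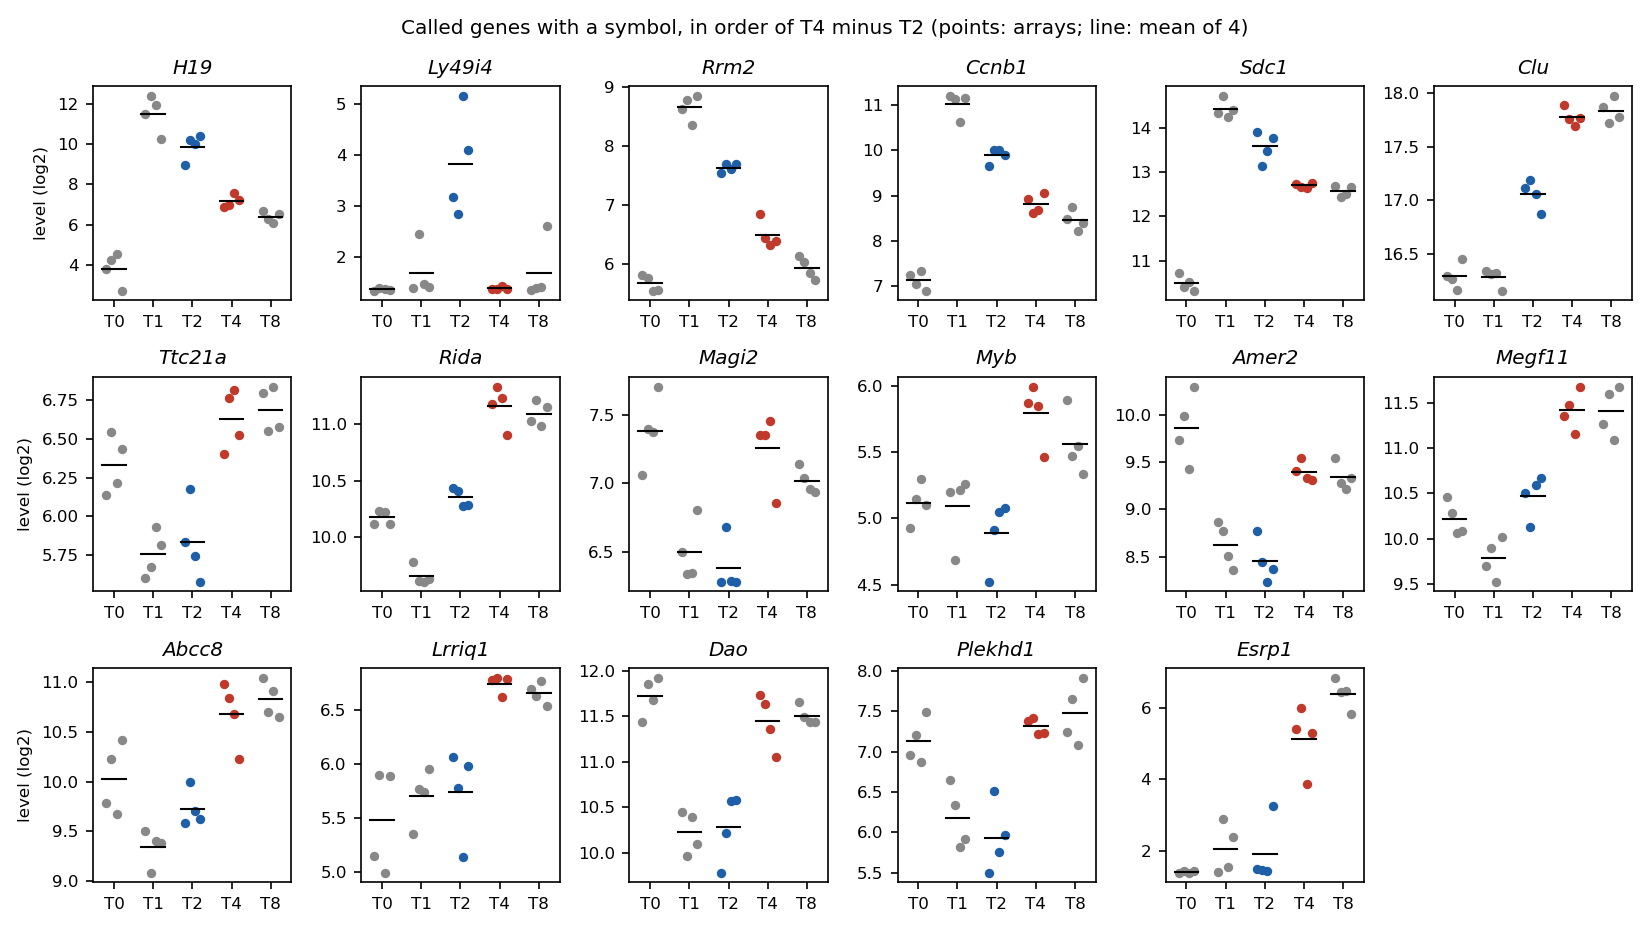
Level (log2) of 17 called genes with a symbol on each array of T0, T1, T2, T4 and T8, where points are arrays and lines are group means, in order of the change from T2 to T4. The T2 arrays (blue) and the T4 arrays (red) do not overlap in any panel, and axes differ between panels and do not start at 0.

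Rrm2 and Ccnb1, genes of cell division, fell between 2 and 4 weeks. Rrm2 encodes the small subunit of ribonucleotide reductase, which makes the deoxynucleotides for DNA synthesis, and its levels were 7.54, 7.69, 7.61 and 7.69 on the T2 arrays and 6.85, 6.43, 6.32 and 6.38 on the T4 arrays. All T4 arrays lay below all T2 arrays, and the change was -1.14 (SE 0.21, adjusted p = 0.0309), with both probes of the gene between -1.18 and -1.09. Ccnb1 encodes cyclin B1, the partner of Cdk1 that drives entry into mitosis, and its levels were 9.67, 10.00, 10.01 and 9.89 on the T2 arrays and 8.93, 8.61, 8.69 and 9.06 on the T4 arrays. Its change was -1.07 (SE 0.21, adjusted p = 0.0444), and on the T8 arrays it remained above the uninjured range (8.22 to 8.74 against 6.89 to 7.33). Each of these calls was lost when any of the T2 arrays or T4 replicate 1, 2 or 3 was left out and was kept without T4 replicate 4.

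Of 45 features in a list of cell cycle and DNA replication genes, 43 lay lower at T4 and 2 higher, and the median change was -0.59, against -0.00343 for all features. The 2 called members both fell, and for 25 of the 45 (55.6%) all T4 arrays lay below all T2 arrays, where the background is 2.99%. The mean level of the list was 8.72 to 8.98 on the T2 arrays and 8.14 to 8.49 on the T4 arrays, compared with 6.98 to 7.38 at T0, 9.35 to 9.86 at T1 and 7.83 to 8.11 at T8. The other members were not called, for instance Cdk1, with a change of -1.03 (SE 0.26, adjusted p = 0.127), and Ect2, which acts in cytokinesis, with -1.16 (SE 0.31, adjusted p = 0.16). Aurkb, a mitotic kinase, went the other way, with levels of 7.33, 6.73, 6.36 and 6.92 at T2 and 6.64, 10.02, 9.95 and 8.80 at T4, so that T4 replicate 1 lay within the range of T2, and a change of 2.01 (SE 0.63, adjusted p = 0.287). Some members hardly differed and overlapped, among them Rrm1 (-0.0009, SE 0.21), Mcm2 (-0.025, SE 0.34) and Aurka (-0.089, SE 0.14). Cdk1, Ect2, Aurkb, Rrm1, Mcm2 and Aurka were chosen after their values were seen. So were Foxj1, Drc1, Col1a1, Col1a2, Col3a1, Cd74, Hbb-b1, Alas2, C5ar1 and Gfap below.

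The promoters of members of this list are shown because most of these genes lay lower at T4 and 2 sequence elements recur before their starts. A CCAAT box (CCAAT on either strand) and the cell cycle gene homology region (TTTGAA or TTTAAA on either strand) are known from promoters of genes of late S, G2 and M phase. In the 250 bases before the annotated start, 25 of the 34 promoters found for the list held a CCAAT box (73.5%) and 22 held the homology region (64.7%), against 34.3% and 25.3% of 27457 promoters in the reference. Both were present in 17 of the 34 (50%), against 8.88% of all. Such matches are letters in a window and no measure of binding. The sequences (RefSeq, build GRCr8, 5′ to 3′ in the direction of the gene) cover the 250 bases before the start of Ccnb1 (chr2:33655226-33655475, minus strand), Cdk1 (chr20:19265043-19265292, plus strand) and Ect2 (chr2:111966627-111966876, minus strand), with matches to either element in capitals.
Ccnb1: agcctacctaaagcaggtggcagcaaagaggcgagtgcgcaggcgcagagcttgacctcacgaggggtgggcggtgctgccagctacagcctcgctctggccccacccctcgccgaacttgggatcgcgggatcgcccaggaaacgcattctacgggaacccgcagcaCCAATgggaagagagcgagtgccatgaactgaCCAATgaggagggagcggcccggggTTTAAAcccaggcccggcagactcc
Cdk1: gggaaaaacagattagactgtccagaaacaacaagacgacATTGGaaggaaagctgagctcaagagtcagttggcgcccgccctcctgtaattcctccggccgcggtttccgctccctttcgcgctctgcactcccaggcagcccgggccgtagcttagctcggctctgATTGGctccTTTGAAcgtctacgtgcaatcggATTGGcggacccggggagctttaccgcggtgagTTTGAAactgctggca
Ect2: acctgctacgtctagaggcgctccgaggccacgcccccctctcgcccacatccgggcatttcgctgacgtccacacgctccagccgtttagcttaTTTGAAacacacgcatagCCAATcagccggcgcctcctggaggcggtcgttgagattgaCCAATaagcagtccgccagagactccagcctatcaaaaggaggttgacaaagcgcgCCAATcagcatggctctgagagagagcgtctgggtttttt
Ccnb1 held 2 CCAAT boxes and 1 homology region, Cdk1 held 3 and 2, and Ect2 held 3 and 1.

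**Figure D3:**
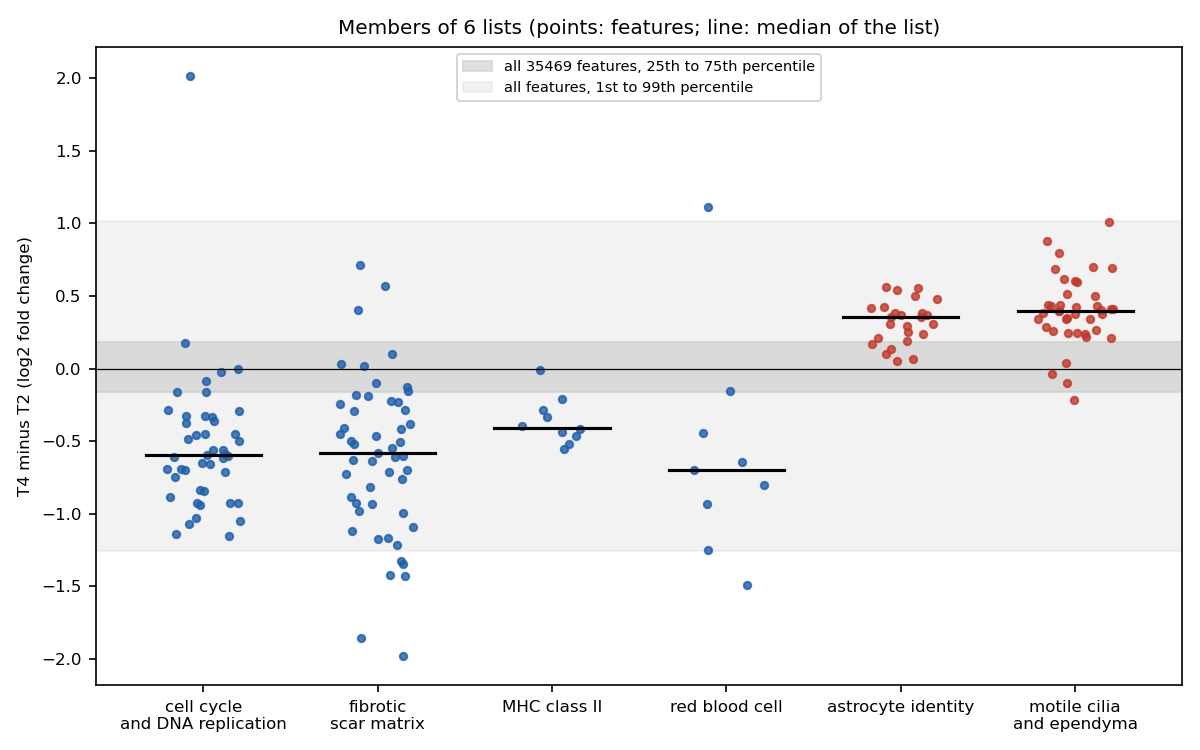
Change from T2 to T4 (log2 fold change) of the members of 6 lists, where points are features, the line is the median of the list and grey bands give the spread of all features. Cell cycle, matrix, MHC class II and red blood cell medians lie at -0.59, -0.58, -0.41 and -0.70, and astrocyte and cilia medians at 0.35 and 0.40.

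H19, Sdc1 and Ly49i4 fell as well. H19, an imprinted long noncoding RNA that is abundant in fetal tissue, had levels of 8.94, 10.18, 9.98 and 10.40 on the T2 arrays and 6.87, 6.99, 7.58 and 7.20 on the T4 arrays. All T4 arrays lay below all T2 arrays, and the change of -2.71 (SE 0.49, adjusted p = 0.0309) was the largest fall among the called features. H19 ranged from 2.73 to 4.53 at T0 and from 10.25 to 12.40 at T1. Sdc1, the heparan sulfate proteoglycan syndecan-1, which also marks plasma cells, had levels of 13.90, 13.14, 13.48 and 13.77 on the T2 arrays and 12.72, 12.67, 12.64 and 12.76 on the T4 arrays. Its T4 arrays lay close together and below every T2 array, with a change of -0.88 (SE 0.17, adjusted p = 0.042). Ly49i4 belongs to the Ly49 family of natural killer cell receptors, whose members are alike in sequence, so the probe may bind transcripts of relatives. Its levels were 3.17, 2.84, 5.16 and 4.09 on the T2 arrays and 1.37, 1.38, 1.44 and 1.37 on the T4 arrays. It was well above background on 2 of the 4 T2 arrays and on none of the T4 arrays, so that it fell at least 1.1-fold (adjusted p = 0.0249).

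Genes of motile cilia lay higher at T4, and Lrriq1 and Ttc21a rose. Lrriq1, a member of the cilia list, had levels of 6.06, 5.78, 5.13 and 5.98 on the T2 arrays and 6.78, 6.80, 6.62 and 6.78 on the T4 arrays. The 3 T4 arrays other than replicate 3 were almost equal, all 4 were above every T2 array, and the change was 1.01 (SE 0.20, adjusted p = 0.0459), a call that was lost in each of the 8 fits with 1 array left out. Ttc21a encodes a protein of the intraflagellar transport machinery and was not on the list. Its levels were 5.83, 6.18, 5.75 and 5.58 on the T2 arrays and 6.40, 6.77, 6.81 and 6.53 on the T4 arrays, and its change was 0.79 (SE 0.15, adjusted p = 0.0435).

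Of 40 features in the list of motile cilia and ependyma, 37 had a change above 0, and the median was 0.40. One member, Lrriq1, was called, and for 8 members (20%) all T4 arrays lay above all T2 arrays, where the background is 2.37%. The mean level of the list was 6.51 to 6.74 at T2 and 6.85 to 7.16 at T4, without overlap, after 6.68 to 6.76 at T0 and 6.23 to 6.46 at T1. Foxj1, the transcription factor that directs the programme of motile cilia, had levels of 13.93, 13.41, 13.42 and 13.40 at T2 and 13.95, 13.98, 13.96 and 13.81 at T4, with a change of 0.38 (SE 0.16, adjusted p = 0.48). T2 replicate 1 lay within the range of T4. Drc1, which encodes a subunit of the dynein regulatory complex that coordinates the beat of the axoneme, had levels of 10.31, 10.59, 10.40 and 10.27 at T2 and 11.15, 11.06, 10.86 and 10.98 at T4, and its change of 0.62 (SE 0.13, adjusted p = 0.0551) just missed the threshold.

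The X-box, the element that RFX transcription factors bind, is common before genes of cilia, and a core of it (GTTGCC on either strand) was present in 12 of 32 promoters of the list (37.5%), against 9.90% of all promoters. In the cell cycle list it was present in 2 of 34 (5.88%). The promoter of Drc1 (chr6:31779257-31779506, minus strand, RefSeq, GRCr8) is shown because Drc1 lay higher at T4 without overlap and its promoter held a match, with the X-box core in capitals.
Drc1: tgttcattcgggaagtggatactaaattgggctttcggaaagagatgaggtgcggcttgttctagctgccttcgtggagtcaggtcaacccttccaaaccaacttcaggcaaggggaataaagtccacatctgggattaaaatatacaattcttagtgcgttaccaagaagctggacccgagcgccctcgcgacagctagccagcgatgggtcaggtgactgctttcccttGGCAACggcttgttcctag
The single match lies close to the annotated start.

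Clu, Dao, Abcc8, Magi2, Amer2 and Megf11 rose. Clu encodes clusterin, a secreted chaperone that inhibits complement and is made by astrocytes, and its levels were 17.12, 17.19, 17.06 and 16.87 on the T2 arrays and 17.89, 17.76, 17.69 and 17.77 on the T4 arrays. The change was 0.72 (SE 0.13, adjusted p = 0.0309), and every T4 array was above the T2 arrays and the ranges of T0 and T1 (16.17 to 16.45 and 16.16 to 16.34). Dao encodes D-amino acid oxidase, a peroxisomal enzyme of astrocytes that degrades D-serine. Its levels were 9.78, 10.22, 10.57 and 10.58 on the T2 arrays and 11.74, 11.64, 11.36 and 11.05 on the T4 arrays, and T4 overlapped the T0 range of 11.44 to 11.93. The change of 1.16 (SE 0.22, adjusted p = 0.0351) was 0.66 within the first scan session and 1.40 within the second. Abcc8, the regulatory subunit SUR1 of ATP-sensitive potassium channels, had levels of 9.59, 10.00, 9.70 and 9.62 on the T2 arrays and 10.98, 10.84, 10.68 and 10.23 on the T4 arrays. Its change was 0.96 (SE 0.18, adjusted p = 0.0351), and it was 0.38 and 1.23 within the sessions.

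Magi2, a scaffold protein of synapses, had levels of 6.29, 6.68, 6.29 and 6.29 on the T2 arrays and 7.35, 7.35, 7.46 and 6.86 on the T4 arrays, where T2 replicate 2 and T4 replicate 4 lay nearest to each other. Its change was 0.87 (SE 0.17, adjusted p = 0.042). Amer2, annotated on the array under its older name Fam123a, encodes a membrane-bound inhibitor of Wnt signalling, and its levels were 8.77, 8.44, 8.24 and 8.37 on the T2 arrays and 9.40, 9.55, 9.33 and 9.31 on the T4 arrays. The change was 0.94 (SE 0.17, adjusted p = 0.0309), and T4 overlapped the lower end of the uninjured range (9.42 to 10.30). Megf11, a transmembrane protein with EGF-like repeats that acts in the spacing of neurons, had levels of 10.51, 10.13, 10.59 and 10.67 on the T2 arrays and 11.36, 11.48, 11.16 and 11.68 on the T4 arrays. T4 was above T2, T1 and T0, with a change of 0.95 (SE 0.16, adjusted p = 0.0286).

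Plekhd1, Rida, Myb and Esrp1 rose as well. Plekhd1 (RGD1566112 on the array) had levels of 5.50, 6.51, 5.75 and 5.97 on the T2 arrays and 7.38, 7.42, 7.22 and 7.24 on the T4 arrays and a change of 1.38 (SE 0.25, adjusted p = 0.0309), with T4 back in the T0 range of 6.87 to 7.49. Rida, an enzyme that removes reactive imines formed in amino acid metabolism (Hrsp12 on the array), had levels of 10.44, 10.41, 10.28 and 10.29 on the T2 arrays and 11.18, 11.33, 11.23 and 10.91 on the T4 arrays and a change of 0.81 (SE 0.13, adjusted p = 0.0249).

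Myb, a transcription factor of progenitor cells, was matched to its feature only through an older locus name. The levels were 4.52, 4.92, 5.05 and 5.08 on the T2 arrays and 5.87, 5.99, 5.85 and 5.46 on the T4 arrays, with a change of 0.90 (SE 0.17, adjusted p = 0.0351). Esrp1 (RGD1560481 on the array), which regulates splicing in epithelia, had levels of 1.47, 1.45, 1.42 and 3.26 on the T2 arrays and 5.41, 6.005, 3.86 and 5.29 on the T4 arrays. It was well above background on all T4 arrays and on no T2 array, and rose at least 2.41-fold (adjusted p = 0.01). T2 replicate 4 and T4 replicate 3 lay nearest to each other, the call was lost without T4 replicate 1 or 2, and at T8 the range was 5.83 to 6.85.

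Matrix genes of the fibrotic scar lay lower at T4 without any member passing the test. Of 51 features, 45 had a change below 0, the median was -0.58, and for 18 (35.3%) all T4 arrays were below all T2 arrays, where the background is 2.99%. The largest differences were those of Postn (periostin), Cthrc1 and Col8a1. Postn had levels of 9.76, 8.61, 8.45 and 9.92 on the T2 arrays and 7.61, 6.99, 7.06 and 7.16 on the T4 arrays, with a change of -1.98 (SE 0.42, adjusted p = 0.0638). Cthrc1, a secreted protein of activated fibroblasts, had levels of 10.08, 9.96, 10.03 and 11.01 on the T2 arrays and 7.96, 8.28, 8.76 and 8.65 on the T4 arrays, with a change of -1.86 (SE 0.38, adjusted p = 0.0551). Col8a1, a short-chain collagen, had levels of 9.99, 9.60, 10.47 and 10.61 on the T2 arrays and 9.09, 8.47, 8.17 and 9.22 on the T4 arrays, with a change of -1.43 (SE 0.39, adjusted p = 0.167). In each of these the groups did not overlap and T2 replicate 4 was the highest array of T2.

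The fibrillar collagen genes Col1a1 and Col3a1 lay lower at T4 as well, without passing the test. Col1a2 had a smaller change of -0.58 (SE 0.40, adjusted p = 0.712), and its groups overlapped. Col1a1 had levels of 14.97, 14.36, 14.56 and 15.13 at T2 and 13.36, 13.59, 13.37 and 13.99 at T4, with a change of -1.18 (SE 0.40, adjusted p = 0.334). Col3a1 had levels of 15.76, 15.21, 15.47 and 15.99 at T2 and 14.18, 14.29, 14.22 and 14.88 at T4, with a change of -1.22 (SE 0.50, adjusted p = 0.454). At both times every array was above the T0 means of 10.40 for Col1a1 and 9.33 for Col3a1. The median of the list with a term for the scan session was -0.64 and ran between -0.68 and -0.40 with 1 array left out. On the 3 arrays whose sample is not in dispute, 2 of T2 and 1 of T4, it was -0.16, with 35 of 51 members below 0. Within sessions, Postn differed by -1.37 and -2.62.

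Among 34 features for matrix proteases and their inhibitors, 23 were below 0 and the median was -0.28, with no call. Mmp8, the collagenase of neutrophils, had levels of 9.28, 8.55, 7.98 and 9.90 on the T2 arrays and 6.46, 6.62, 7.48 and 6.22 on the T4 arrays and a change of -2.23 (SE 0.62, adjusted p = 0.19). Mmp7 (matrilysin) ran from 12.14 to 13.70 at T2 and from 9.55 to 12.87 at T4, overlapping, with a change of -2.02 (SE 1.14, adjusted p = 0.63), and Mmp3 (stromelysin) had -1.35 (SE 0.42, adjusted p = 0.281) with no overlap.

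Apart from Sdc1, no member of the lists of immune cells was called. In the list of MHC class II genes, which present antigen to helper T cells, all 10 features had a change below 0 (median -0.41), and for 3 (30%) all T4 arrays lay below all T2 arrays, where the background is 2.99%. RT1-Da had levels of 10.61, 10.72, 11.20 and 11.09 on the T2 arrays and 10.30, 10.26, 10.33 and 10.52 on the T4 arrays and a change of -0.55 (SE 0.48, adjusted p = 0.808), and RT1-Bb had a change of -0.52 (SE 0.67, adjusted p = 0.892). Cd74, the invariant chain, had a change of -0.40 (SE 0.45, adjusted p = 0.869). At T8 the RT1-Da range of 10.30 to 13.10 reached above that of T2.

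For T and natural killer cells, 28 of 34 features were below 0 (median -0.25), but on the 3 undisputed arrays 20 were above 0 (median 0.06). Gzmc (granzyme C) was well above background on all T2 arrays and on no T4 array, with levels of 5.76, 4.97, 5.75 and 4.59 on the T2 arrays and 3.25, 2.45, 3.25 and 2.59 on the T4 arrays. It lay at least 3.01-fold lower at T4, which did not pass the test (adjusted p = 0.115). Nkg7, a protein of cytotoxic granules, had a change of -1.02 (SE 0.36, adjusted p = 0.376) with overlap, and Cd8a, the coreceptor of cytotoxic T cells, -0.92 (SE 0.54, adjusted p = 0.65) without overlap. For B and plasma cells, 13 of 17 features were below 0 (median -0.23), and Sdc1 was the called member. For neutrophils, 10 of 17 were below 0 (median -0.13), but on the 3 undisputed arrays 12 were above 0 (median 0.26). Beside Mmp8, given with the proteases, Trem1, an amplifying receptor of myeloid cells, had a change of -1.13 (SE 0.34, adjusted p = 0.241). S100a9, a granule protein, had -1.11 (SE 0.50, adjusted p = 0.511) with overlap. Its T2 replicate 4 was at 9.13 and the other T2 arrays were between 6.45 and 7.11.

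For microglia and macrophages, 26 of 34 features were below 0, the median was -0.16 and for 8 (23.5%) all T4 arrays lay below all T2 arrays, where the background is 2.99%. P2ry12, the purinergic receptor of homeostatic microglia, had levels of 13.59, 13.95, 13.97 and 13.93 on the T2 arrays and 13.24, 13.31, 13.53 and 13.26 on the T4 arrays and a change of -0.53 (SE 0.31, adjusted p = 0.643). The 2 members of this list with the largest differences, Cd163, a scavenger receptor, at 1.01 (SE 0.67, adjusted p = 0.703) and Nos2, inducible nitric oxide synthase, at 0.77 (SE 0.47, adjusted p = 0.67), lay higher at T4, overlapped and were not well above background on every array. For complement, 16 of 28 were below 0 (median -0.19), and Clu, an inhibitor of the pathway, was the called member. C5ar1, the receptor of the anaphylatoxin C5a on myeloid cells, had levels of 12.02, 11.47, 11.54 and 12.17 at T2 and 10.87, 10.51, 10.58 and 11.26 at T4 and a change of -0.995 (SE 0.21, adjusted p = 0.0638). For chemokines and their receptors, 31 of 51 were below 0 (median -0.15), and members with large differences went in both directions. Cxcl13, which attracts B cells, had a change of -1.60 (SE 0.66, adjusted p = 0.459), and its groups overlapped. On the 3 undisputed arrays, the medians were above 0 for complement (0.10) and chemokines (0.10). They were below 0 for MHC class II (-0.38), B and plasma cells (-0.39) and microglia and macrophages (-0.17).

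Blood markers moved with the comparison as well. Of 9 red blood cell features, 8 lay lower at T4 (median -0.70). Hbb-b1, a globin, had levels of 15.72, 15.93, 15.84 and 16.10 at T2 and 15.25, 15.54, 15.41 and 15.60 at T4, without overlap and with a change of -0.45 (SE 0.19, adjusted p = 0.47). Alas2, the first enzyme of haem synthesis in erythroid cells, had a change of -0.80 (SE 0.34, adjusted p = 0.47). The mean of the list ran from 7.57 to 8.65 at T2, with T2 replicate 4 the highest, and from 7.13 to 7.56 at T4. The part of these cells in the other results was not tested.

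Genes of astrocyte identity lay higher at T4. All 25 features had a change above 0 (median 0.35), none was called, and for 3 (12%) all T4 arrays lay above all T2 arrays, where the background is 2.37%. The mean level of the list was 11.76 to 12.12 at T2 and 12.12 to 12.32 at T4, against 12.54 to 12.70 at T0. Slc4a4, a sodium bicarbonate cotransporter, had levels of 12.83, 13.04, 13.12 and 13.23 on the T2 arrays and 13.60, 13.47, 13.79 and 13.62 on the T4 arrays and a change of 0.56 (SE 0.16, adjusted p = 0.209). S100b, a calcium-binding protein, had 0.55 (SE 0.16, adjusted p = 0.209), and its difference was 0.05 within the first session and 0.74 within the second. Fgfr3, a growth factor receptor, had 0.54 (SE 0.25, adjusted p = 0.511). On the 3 undisputed arrays, 17 of the 25 were above 0 (median 0.05). For genes of reactive astrocytes, 15 of 27 were above 0 and the median was 0.11. Gfap, the intermediate filament of astrocytes, had a change of 0.57 (SE 0.29, adjusted p = 0.58), and Emp1, a membrane protein, -0.95 (SE 0.24, adjusted p = 0.128) without overlap.

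Of 20 features for Schwann cells and peripheral myelin, 13 were above 0 (median 0.28). Prx (periaxin) had levels of 10.39, 9.57, 10.51 and 10.34 on the T2 arrays and 11.26, 11.20, 11.45 and 10.81 on the T4 arrays and a change of 0.97 (SE 0.47, adjusted p = 0.549) without overlap. For oligodendrocytes and central myelin, 17 of 30 were above 0 (median 0.06). The labelled tissue held the markers of both central cell types, as 37 of the 40 neuron features and 30 of the 30 oligodendrocyte features were well above background on all 8 arrays. For neurons, 28 of 40 were above 0 (median 0.16), but that median ran from -0.10 to 0.41 when single arrays were left out, and the means of the list, 9.48 to 10.69 at T2 and 9.67 to 10.50 at T4, overlapped. Nefh, the heavy neurofilament subunit, had the largest difference, at 0.86 (SE 0.30, adjusted p = 0.349).

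The study centred on cyclic AMP signalling. Of 36 features of that list, 23 were above 0 (median 0.07), and 3 lay higher and 2 lower at T4 without overlap, where the background is 2.37% and 2.99% of all features. On the 3 undisputed arrays, 24 of the 36 were below 0 (median -0.09). The 3 members with the largest differences just missed the threshold or lay near it. Ppp1r1b (DARPP-32), a phosphatase inhibitor controlled by protein kinase A, had levels of 8.21, 8.02, 7.78 and 7.91 on the T2 arrays and 9.11, 8.99, 9.35 and 8.40 on the T4 arrays and a change of 0.98 (SE 0.20, adjusted p = 0.0551). Rapgef3 (EPAC1), an exchange factor that cyclic AMP activates directly, had levels of 10.86, 11.21, 11.06 and 11.31 on the T2 arrays and 12.07, 12.28, 12.26 and 11.45 on the T4 arrays and a change of 0.90 (SE 0.21, adjusted p = 0.0915), and Ntrk2 (TrkB), the receptor of BDNF, had 0.60 (SE 0.12, adjusted p = 0.0551), with its 3 probes between 0.34 and 0.95. Of the circadian clock genes, 13 of 16 were above 0 (median 0.26), with Per1 at 0.76 (SE 0.34, adjusted p = 0.498) and Per2 at 0.51 (SE 0.18, adjusted p = 0.375), and the hour at which tissue was taken is not given in the sources used here.

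**Figure D4:**
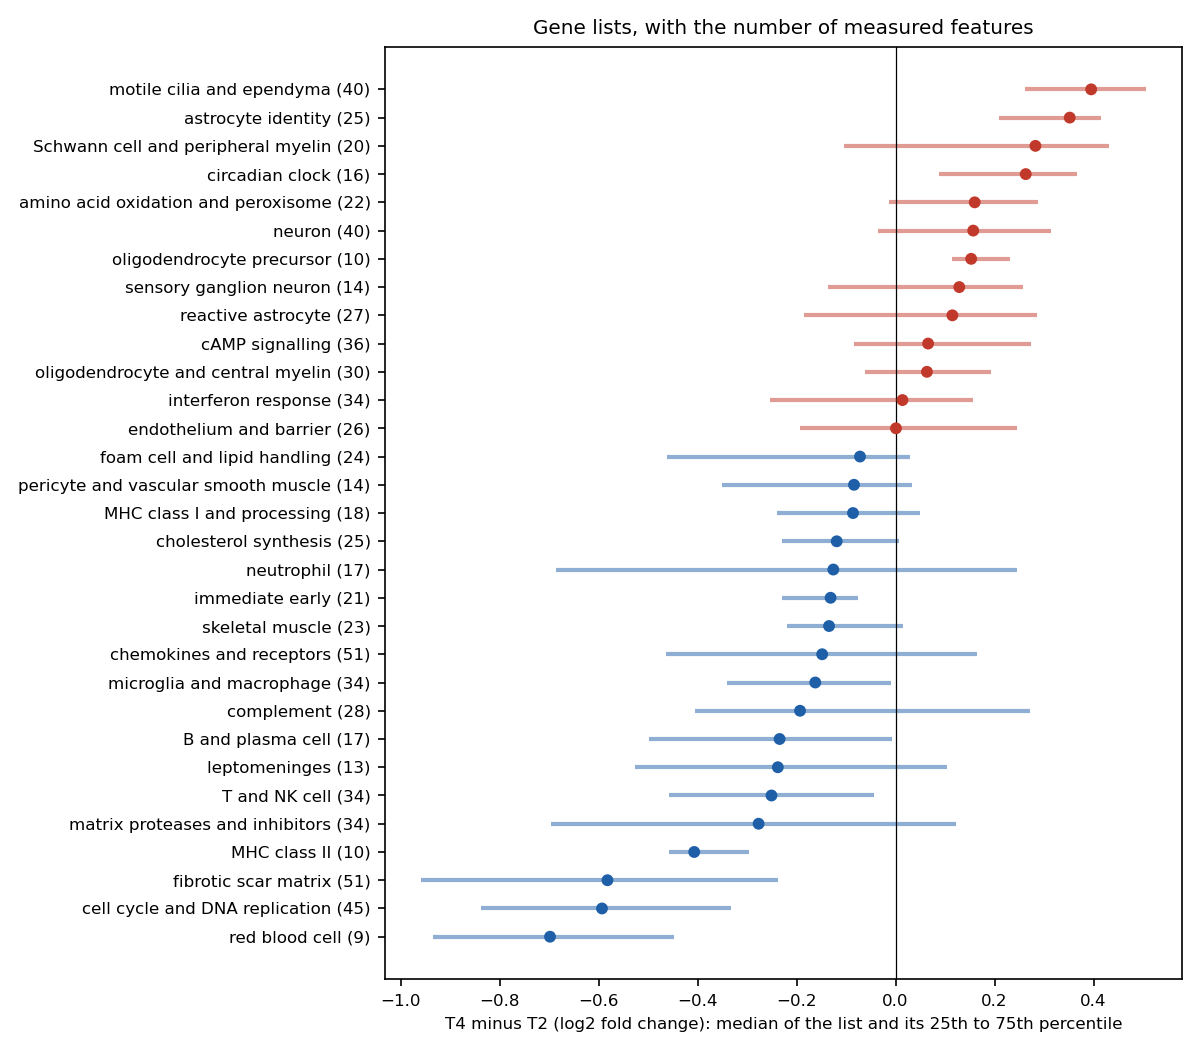
Median change from T2 to T4 (log2 fold change, point) and 25th to 75th percentile (line) of the members of 31 lists, with the number of features in parentheses. Medians run from -0.70 (red blood cell) to 0.40 (motile cilia and ependyma).

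Dao was the called member of the list of amino acid oxidation and peroxisomes, where 15 of 22 were above 0 (median 0.16). The other lists had no called member, and their medians lay between -0.24 (leptomeninges) and 0.15 (oligodendrocyte precursor). For immediate early genes, 17 of 21 were below 0 (median -0.13), with Fosl1 at -0.58 (SE 0.25, adjusted p = 0.49) and Egr1 at -0.56 (SE 0.19, adjusted p = 0.361), both transcription factors. For cholesterol synthesis, 18 of 25 were below 0 (median -0.12), while Dhcr7, the last enzyme of the pathway, had 0.70 (SE 0.21, adjusted p = 0.27) and Stard4, a sterol carrier, -0.67 (SE 0.14, adjusted p = 0.0666), each without overlap.

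For foam cells and lipid handling, 17 of 24 were below 0 (median -0.07), with Cd36, a scavenger receptor, at -0.89 (SE 0.40, adjusted p = 0.514). For sensory ganglion neurons, 8 of 14 were above 0 (median 0.13), while Calcb, a calcitonin gene-related peptide of sensory fibres, had levels of 12.04, 12.49, 12.52 and 12.65 on the T2 arrays and 10.29, 11.22, 11.11 and 11.86 on the T4 arrays and a change of -1.30 (SE 0.32, adjusted p = 0.115). The interferon response (median 0.01), MHC class I (median -0.09), endothelium (median 0.00) and pericytes (median -0.08) showed differences in both directions. For skeletal muscle, which can adhere to dissected cord, 16 of 23 were below 0 (median -0.13), and Pygm, muscle glycogen phosphorylase, lay higher at 0.62 (SE 0.13, adjusted p = 0.0551).

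**Figure D5:**
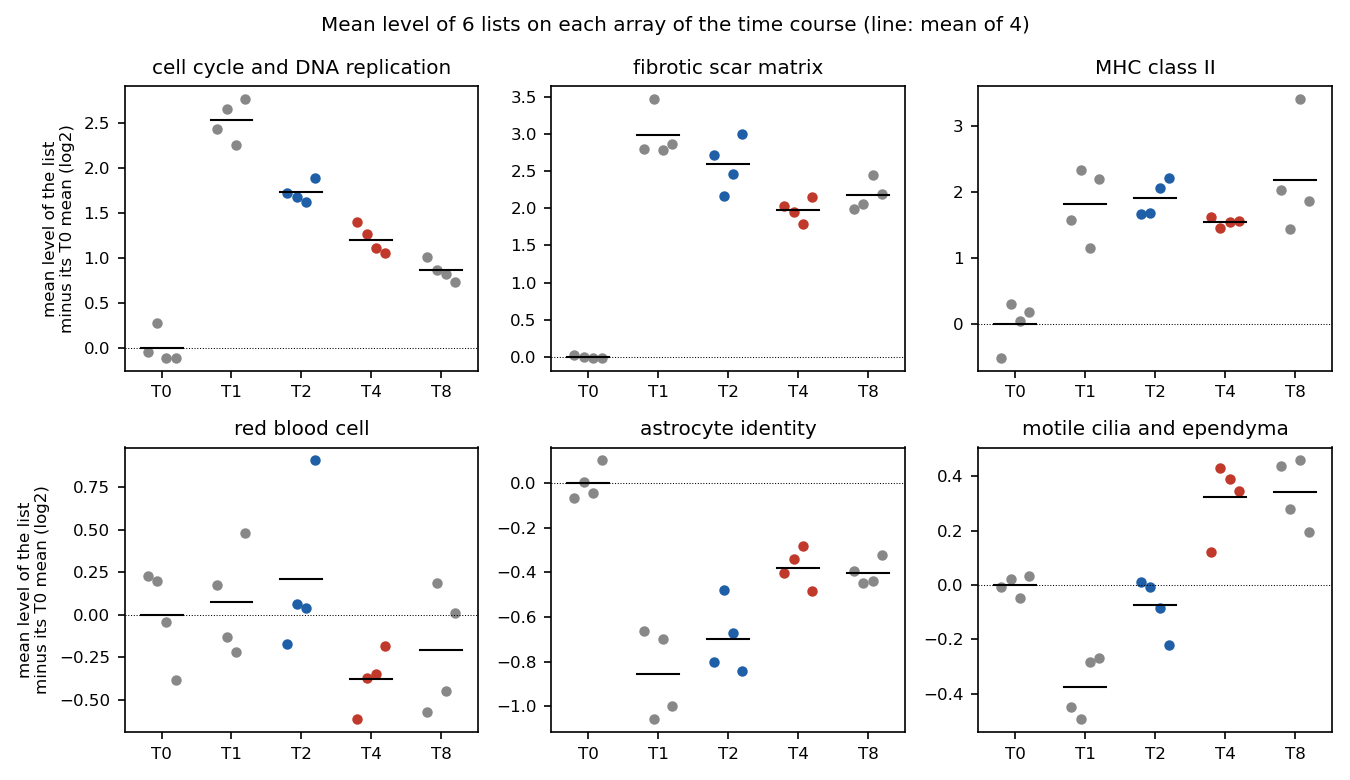
Mean level of 6 lists on each array of the time course, given as the difference from the T0 mean of the list (log2), where points are arrays and lines are group means. T2 (blue) and T4 (red) are without overlap for the cell cycle list (8.72 to 8.98 against 8.14 to 8.49) and the cilia list (6.51 to 6.74 against 6.85 to 7.16). The ranges in parentheses are mean levels and not differences from T0. Other lists, such as matrix, MHC class II and red blood cells, also had mean levels without overlap.

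The largest differences without overlap, among genes above background on all 8 arrays, mostly did not pass the test. Beside H19, Postn, Cthrc1, Col8a1 and Mmp8, the 10 largest falls held Msln, Upk1b, Fcrla, Aspn and Crisp3. Msln (mesothelin), a surface protein of mesothelial linings, had levels of 10.08, 9.24, 9.67 and 9.34 on the T2 arrays and 7.28, 6.54, 4.60 and 8.10 on the T4 arrays and a change of -2.95 (SE 0.76, adjusted p = 0.142). Upk1b, a uroplakin, followed the same arrays at T4 (7.32, 7.41, 7.91 and 7.18 on the T2 arrays and 6.14, 4.79, 4.06 and 6.89 on the T4 arrays), with a change of -1.99 (SE 0.77, adjusted p = 0.427). In both genes T4 replicate 4 was the highest and T4 replicate 3 the lowest T4 array. Aspn (asporin), a small proteoglycan, had -1.73 (SE 0.61, adjusted p = 0.37), Fcrla, a gene of B cells, -1.93 (SE 0.60, adjusted p = 0.284), and Crisp3 (Crisp1 on the array) -1.71 (SE 0.52, adjusted p = 0.274).

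Beside Plekhd1 and Dao, the 10 largest rises held Sfrp5, Trim16, Tent5b, Cnmd, Amy1, Slc36a2, Gucy1a2 and Fmo2. Sfrp5, a secreted inhibitor of Wnt signals, came nearest to the threshold, with levels of 6.64, 6.82, 6.45 and 6.90 on the T2 arrays and 8.61, 8.36, 8.28 and 7.91 on the T4 arrays and a change of 1.59 (SE 0.33, adjusted p = 0.0551). Gucy1a2, a subunit of the nitric oxide receptor guanylate cyclase, had 1.25 (SE 0.29, adjusted p = 0.0915). The 2 probes of Trim16 differed by 0.50 and 3.21, and its mean change was 1.86 (SE 0.59, adjusted p = 0.299). Cnmd (chondromodulin) lay between 9.66 and 9.96 on the T4 arrays and between 7.30 and 9.57 at T2, with a change of 1.44 (SE 0.71, adjusted p = 0.565). Tent5b, Amy1, the amino acid transporter Slc36a2 and the monooxygenase Fmo2 had changes of 1.57, 1.36, 1.26 and 1.15, with adjusted p of 0.222, 0.434, 0.318 and 0.361.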

How the data were processed

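Whole-cord RNA was hybridised to single-colour (Cy3) Agilent rat arrays, and per the labels the scans were read with Agilent Feature Extraction, whose version is not given in the sources used here. The authors deposited a table of log2 values after quantile normalization, and its unit is log2 intensity. The authors also deposited the scanner outputs, which hold the spot intensity before normalization. The table was joined to the scanner outputs by spot number, control spots were left out, and spots of a probe and then probes of a gene name were averaged (35469 features, 41012 probes). Gene symbols came from RefSeq and matched 16070 features. Each column of the table was matched to a scanner output by rank order, and 16 of 28 pairs named different samples, so sample names follow the table.

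T4 was compared with T2 in limma 3.58.1 (R 4.3.3) with all 28 arrays, 1 mean per group and empirical Bayes moderation, with p-values adjusted over all features (Benjamini-Hochberg) and a threshold of 0.05. The exact permutation test of 4 against 4 arrays cannot give a p below 0.0286. Spots marked as outliers (3724) were left out of the scanner values, which serve only the alternatives. Genes were named by rule: called genes, the 10 largest rises and 10 largest falls without overlap, and called members or else the 3 largest differences of each list, with exceptions named in the text. Some genes that the rule takes in are not reported here. The members and gene lists were chosen with earlier results of these data known. A gene not well above background in a group is given as a bound, against the lowest signal well above background on each array. Columns were grouped by the labels. Other normalizations, probe filters, samples and blocks were tried, and the tests were checked on simulated data.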

Additional observations from a re-analysis of the deposited data

Results flagged for a closer look

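Among 69 of the named genes, each group of 4 arrays at T2 and at T4 was examined for a highest or lowest array that stood apart from the other 3, by its gap divided by the range of the group. This flags about 1 in 20 groups by chance, and 11 of 138 were flagged. The high arrays at T2 were replicate 4 for Esrp1 (3.26 against 1.42 to 1.47, ratio 0.972) and Cthrc1 (11.01 against 9.96 to 10.08, ratio 0.882), replicate 2 for Magi2 (6.68 against 6.29, ratio 0.982) and replicate 1 for Trim16 (8.31 against 6.34 to 6.47, ratio 0.933) and Foxj1 (13.93 against 13.40 to 13.42, ratio 0.979). The low array at T2 was replicate 1 for P2ry12 (13.59 against 13.93 to 13.97, ratio 0.897). At T4, the high arrays were replicate 3 for Ly49i4 (ratio 0.838), replicate 4 for Col3a1 (14.88 against 14.18 to 14.29, ratio 0.846) and replicate 1 for Dhcr7 (12.95 against 12.28 to 12.37, ratio 0.861). The low arrays at T4 were replicate 3 for Lrriq1 (6.62 against 6.78 to 6.80, ratio 0.88) and replicate 4 for Foxj1 (13.81 against 13.95 to 13.98, ratio 0.838).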

How the results depend on the processing

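The reported fit called 27 features (18 higher and 9 lower at T4). The count was 46 with the matched scanner outputs after quantile normalization, 50 (20 higher, 30 lower) after scaling to the 75th percentile, where the median of all features was -0.073, and 74 after another background correction. It was 59 without dim probes, 29 with single probes, 27 with the brightest probe of each gene and 49 with a trended, robust variance. With the time course alone it was 124, with the slide as a fixed block 31, with the slide as a random block 83 and with a term for the scan session 86. With the undisputed arrays of all groups it was 112, all but 5 of them higher at T4 and none among the 27. That fit holds 2 T2 arrays and 1 T4 array, all of the first scan session, and the lone T4 array is assumed to vary like the arrays of the other groups. It was 0 with T2 and T4 alone, where 3192 had an unadjusted p under 0.05, and 0 with each scanner output under its deposited sample, where 729 did. With 1 array left out, the count ran from 1 to 81. With a 2-fold change also required it was 13. The replicate numbers did not pair the arrays (correlations of same-numbered arrays 0.073, -0.033, -0.0099 and -0.323), and with the replicate block 11 features were called. Under the deposited samples of the scanner outputs, which move arrays between groups, 12 of the 27 called features kept their direction and 15 did not, and among the named features the change reversed for H19 (0.74), Plekhd1 (-0.18), Dao (-0.30), Rrm2 (0.35), Ccnb1 (0.57), Abcc8 (-0.034), Amer2 (-0.12), Sdc1 (1.04), Magi2 (-0.051), Ttc21a (-0.12) and FM087620 (0.40). Under the same names the list medians were 0.42 for the cell cycle, 0.88 for matrix, -0.29 for astrocyte identity and -0.013 for cilia. The cause of the other differences between settings was not tested.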
